A study of Arabidopsis thaliana with 24 samples.

Results

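The core histone genes of Arabidopsis thaliana are described here in 12 mRNA libraries from seedlings of the rh27-2 mutant and of its wild type. They were taken from a list of locus identifiers by histone family, a rule that uses no measured value although the list was drawn up with earlier results of these data known, and number 37 of the 33341 loci counted in every library. The list holds 5 genes of histone H3.1, 8 of H4, 4 of canonical H2A and 8 of H2B, 25 in all, which are called replicative below. It also holds 3 genes of H3.3 and 3 of H2A.Z, called replacement genes, and 6 other variant genes, which are 3 of H2A.W, 2 of H2A.X and the single gene of CENH3. All 37 had enough counts to be tested in every comparison, with 23 counts in the lowest single library (AT3G27360, an H3.1 gene). The members took between 0.198% and 0.433% of all counts of a library.

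The study compared rh27-2 with Col-0 wild type to learn how the DEAD-box RNA helicase RH27 affects microRNAs and the transcripts around them. Shoot apices and root tips were collected 5 days after germination from seedlings of both genotypes, which gave 4 groups: wild-type shoot apices, rh27-2 shoot apices, wild-type root tips and rh27-2 root tips. Each group had 3 mRNA libraries, and 12 small RNA libraries were not used here. The labels name no transgene and no treatment for any group. They do not say what lesion rh27-2 carries, how many plants went into a library or whether replicates were grown separately. The spread behind each p-value is therefore that between libraries, which may be technical.

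Libraries held 15603992 to 20380109 counts over 21650 to 22788 detected loci. RH27 (AT5G65900) measured 25.5, 24.5 and 21.8 CPM (counts scaled to a common library size) in wild-type root tips and 12.6, 14.9 and 13.7 in rh27-2 root tips, a log2 fold change of -0.80 ± 0.094 (SE, n = 3 per group, adjusted p = 8.47e-06). In shoot apices it read 34.6, 26.8 and 30.8 CPM in wild type and 25.8, 26.8 and 24.0 in rh27-2, which did not pass the test (log2 fold change -0.33 ± 0.124, adjusted p = 0.0712). Most defining markers, though not all, followed the organ labels. The summed level of PLT1, PLT2, SMB and WOX5, root tip genes, was 41.9 to 62.1 CPM in the root libraries and 0.137 to 7.13 CPM in the shoot libraries, where PLT1, PLT2 and SMB were at or near 0 and WOX5 read 5.47, 7.13 and 1.58 CPM in wild type. WOX5 alone of the 4 was lower in wild-type root tips than in wild-type shoot apices (log2 fold change -2.34, adjusted p = 0.00749). Of the 4 shoot apex genes, STM and AFO were at or near 0 in root tips and KNAT1 read 2.59, 3.43 and 4.05 CPM in wild-type root tips. KNAT6 did not separate the organs, at 17, 11.6 and 20.1 CPM in wild-type shoot apices and 17, 12.8 and 17.5 CPM in wild-type root tips (adjusted p = 0.872). The light-harvesting gene LHB1B2 is listed at 0 in all 12 libraries.

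Core histones form the octamer around which nuclear DNA is wrapped, with H3 and H4 at its centre and H2A and H2B at its sides. Replicative histones are made mainly in S phase, when new DNA must be packed, so their transcripts are known as a mark of dividing cells, as in meristems. Replacement variants are made throughout the cell cycle and enter chromatin outside replication: H3.3 at transcribed genes, and H2A.Z around transcription starts and over genes that respond to the environment. H2A.W marks plant heterochromatin, H2A.X is phosphorylated at DNA breaks, and CENH3 takes the place of H3 at centromeres. Plant histone transcripts carry poly(A) tails, so they are recovered in mRNA libraries. In these bulk samples, fewer dividing cells and less histone RNA per cell cannot be told apart.

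Levels are given in CPM scaled by TMM factors over the 12 libraries and are not divided by gene length, so they are compared between samples and not between genes. A gene is said to be called, or to have risen or fallen, where its adjusted p was below 0.05 in edgeR's quasi-likelihood test over all genes tested. Many histone genes of a class are near-identical copies, and how reads matching several of them were counted is not given in the sources used here. Values of single copies of H3.1, H4, H2A and H2B are therefore uncertain as to which copy they belong to, while class sums depend less on that split.

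The wild-type shoot libraries differed widely from each other in replicative histone transcripts. The 25 replicative genes summed to 2878, 2253 and 1334 CPM in wild-type shoot replicates 1, 2 and 3, a coefficient of variation (CV) of 36.0%. Replicate 3 was the lowest and lay within the range of the rh27-2 shoot libraries, which summed to 1325, 1515 and 1638 CPM. The root libraries were tight, at 1549, 1530 and 1432 CPM in wild type and 1234, 1208 and 1260 CPM in rh27-2. In wild-type shoot apices, 23 of the 25 replicative genes ranked the libraries alike, with replicate 1 highest and replicate 3 lowest, against 24.2% of all genes tested there. The median ratio of replicate 1 to replicate 3 was 2.16 for the replicative genes and 1.01 for all genes.

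All 12 genes of a list of G2 and mitosis genes and 12 of 15 DNA replication genes ranked the wild-type shoot libraries in that order too. The mitotic list summed to 696.9, 528.0 and 350.3 CPM in these 3 libraries. The replacement genes summed to 1140, 1081 and 1110 CPM, a CV of 2.70%. Of the 6 replacement genes, 3 ranked the libraries that way, the H2A.Z genes HTA8 and HTA11 and the H3.3 gene AT5G10980. The H2A.Z gene HTA9 ran the other way, at 121, 151 and 176 CPM. HTA11 read 76.1, 57.6 and 29.6 CPM, so the sum hides part of the spread. Gene by gene, the median CV was 18.8% for replacement genes (3.27% to 43%), 36.3% for replicative genes and 16.5% over all genes. Among the green tissue markers, CAB1 read 8940, 11300 and 15000 CPM in wild-type shoot replicates 1, 2 and 3 and RBCS1A 10200, 7410 and 6080 CPM, in opposite orders, and their part in the spread was not tested.

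**Figure D1:**
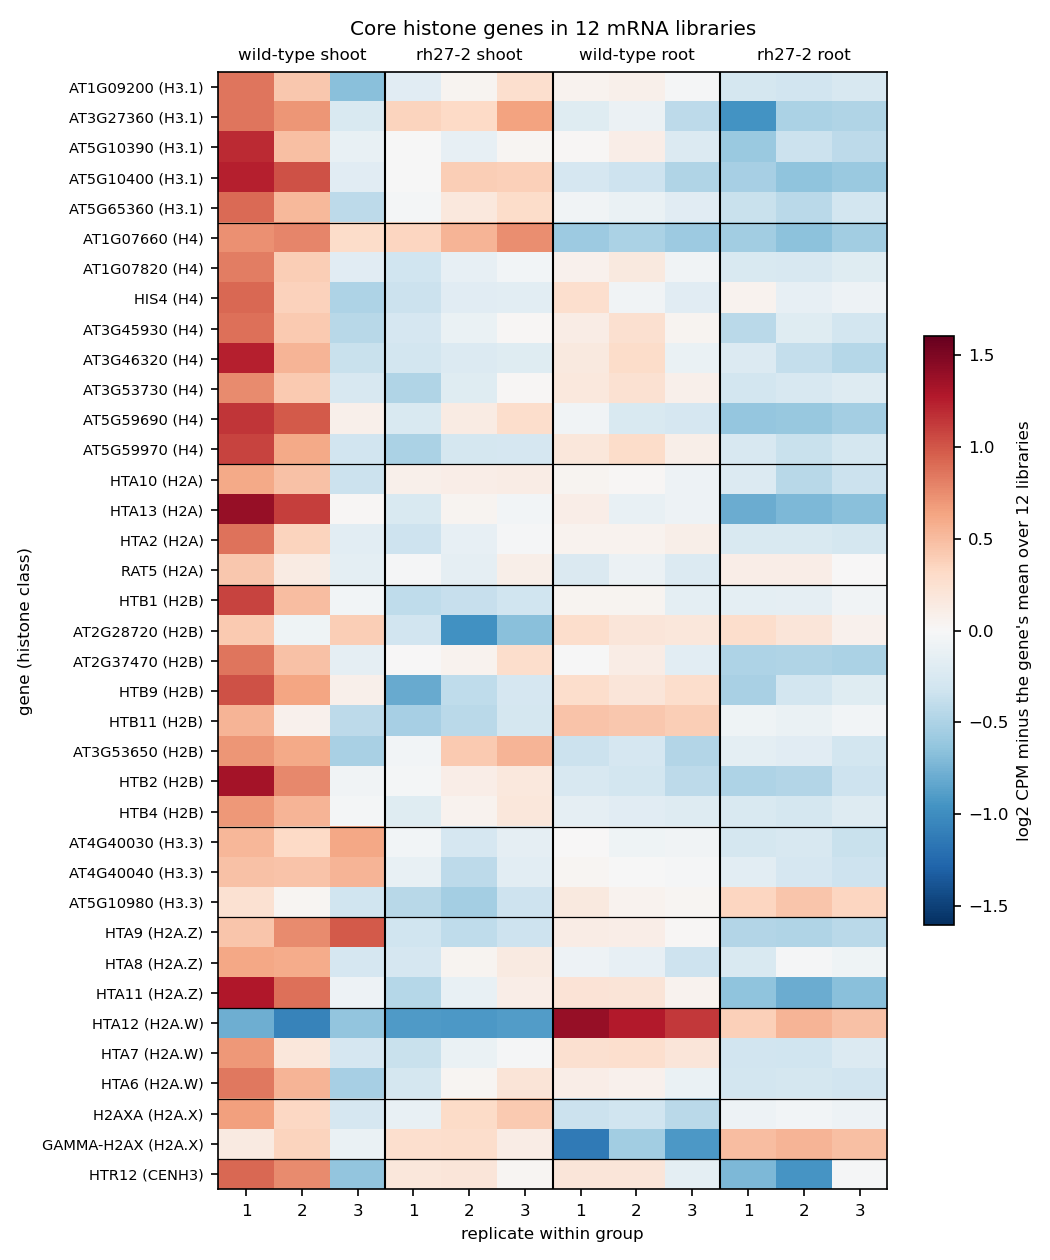
Level of each of the 37 core histone genes (rows, grouped by class) in each of the 12 mRNA libraries (columns, replicates 1 to 3 of 4 groups), as log2 CPM minus the gene's mean over all libraries. Wild-type shoot replicates 1 and 2 are high (red) for most replicative genes and replicate 3 is not, while HTA12 stands out as high in root tips.

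In rh27-2 shoot apices, 10 of the 37 histone genes fell and none rose. The lowest adjusted p-values among them were those of the replacement genes HTA9, AT4G40040 and AT4G40030. Of the 6 replacement genes 5 fell, which were all 3 H3.3 genes and the H2A.Z genes HTA9 and HTA11. Of the 25 replicative genes 5 fell, and none of the 6 other variant genes passed the test. Without wild-type replicate 3, 21 replicative and 6 replacement genes fell, so the gap between their counts turned on that library. Over all genes, 3908 were called lower without that library and 3762 with it. With all libraries, 40.9% of all genes tested in shoot apices were called, 21.1% higher and 19.8% lower. The groups did not overlap for 7 members that were lower and for none that were higher, against 24.4% and 30.5% of all genes. Of the 37 log2 fold changes 36 were negative, with a median of -0.58 beside -0.02 over all genes. An unadjusted p below 0.05 was found for 18 members, 0 of them among the 6 other variants. The share of all genes below that threshold was not computed, and is at least the 40.9% that were called. DESeq2 also called 0 members higher. The falls were 1.41- to 2.24-fold among the called members.

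The pair of H3.3 genes AT4G40030 and AT4G40040 are neighbours, with 0 protein-coding genes between them in the TAIR10.1 annotation of RefSeq. AT4G40040 measured 442, 436 and 464 CPM in wild-type and 294, 238 and 283 CPM in rh27-2 shoot libraries. AT4G40030 read 270, 233 and 287 CPM in wild type and 181, 155 and 169 CPM in rh27-2. Every rh27-2 library lay below every wild-type library for both, at log2 fold changes of -0.78 ± 0.133 (adjusted p = 0.00488) and -0.71 ± 0.132 (adjusted p = 0.00672). The remaining H3.3 gene, AT5G10980, read 205, 178 and 139 CPM in wild type and 128, 119 and 138 in rh27-2. Its highest rh27-2 library all but met its lowest wild-type library, with a log2 fold change of -0.50 ± 0.151 (adjusted p = 0.0360).

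HTA9 (AT1G52740), an H2A.Z gene, measured 121, 151 and 176 CPM in wild-type and 71.7, 67.0 and 70.6 CPM in rh27-2 shoot libraries. Its lowest wild-type library was replicate 1, and every rh27-2 library lay below it (log2 fold change -1.16 ± 0.161, adjusted p = 0.00243). HTA11 (AT3G54560), also an H2A.Z gene, read 76.1, 57.6 and 29.6 CPM in wild type and 22.8, 28.9 and 33.7 CPM in rh27-2, so its groups overlapped (log2 fold change -0.99 ± 0.321, adjusted p = 0.0444). With the replicate number as a block HTA11 did not pass the test (log2 fold change -0.93, adjusted p = 0.0570). The remaining H2A.Z gene, HTA8 (AT2G38810), had 25.2, 24.9 and 13.7 CPM in wild type and 13.7, 17 and 18.2 CPM in rh27-2, which overlap (log2 fold change -0.44 ± 0.240, adjusted p = 0.179). As a class H2A.Z summed to 222.5, 233.4 and 219.5 CPM in wild type and 108.3, 112.8 and 122.5 CPM in rh27-2, a ratio of means of 0.509.

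Among the replicative genes, the H2B genes made up 3 of the 5 falls in shoot apices. HTB9 (AT3G45980) measured 40.7, 31.0 and 21.2 CPM in wild type and 11.5, 15.1 and 16.6 CPM in rh27-2 (log2 fold change -1.16 ± 0.244, adjusted p = 0.0102). HTB1 (AT1G07790) read 110, 73.1 and 50.5 CPM against 39.2, 40.3 and 41.9 CPM (log2 fold change -1.0 ± 0.250, adjusted p = 0.0188). These H2B genes stayed apart between the genotypes, as did AT2G28720, also of H2B, at 13.6, 9.68 and 13.4 CPM against 8.19, 5.2 and 6.39 CPM (log2 fold change -0.95 ± 0.225, adjusted p = 0.0150). AT2G28720 and the H4 gene AT1G07660 were the replicative genes whose wild-type libraries did not rank in the order given above. The H2A gene HTA13 (AT3G20670), at 130, 106 and 50.2 CPM against 41.9, 51.0 and 47.9 CPM, and the H4 gene AT5G59970, at 129, 92.6 and 49.1 CPM against 43.1, 50.2 and 50.7 CPM, were called with overlapping groups. Their log2 fold changes were -1.08 ± 0.310 (adjusted p = 0.0300) and -0.96 ± 0.305 (adjusted p = 0.0413). In both genes, wild-type replicate 3 sat among the rh27-2 values.

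The other 20 replicative genes did not pass the test in shoot apices, with log2 fold changes from -0.90 for the H4 gene AT3G46320 to -0.09 for the H2B gene AT3G53650. None of the 5 H3.1 genes was called. AT5G10390 came nearest, at 47.0, 28.6 and 18.8 CPM in wild type and 20.3, 18.7 and 20.9 CPM in rh27-2 (log2 fold change -0.71 ± 0.294, adjusted p = 0.0922). The H3.1 class summed to 595.5, 457.6 and 223.5 CPM in wild type and 285.6, 335.6 and 368.9 CPM in rh27-2, with the lowest wild-type library below all 3 rh27-2 libraries. The H4 class, at 817.7, 647.5 and 378.0 CPM against 342.7, 406.6 and 441.2 CPM, overlapped through wild-type replicate 3. A call could not be made at this spread, which does not show that these genes were equal in the genotypes.

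How many replicative genes were called in shoot apices turned on wild-type replicate 3. Without it, 30 members were called, 21 of them replicative genes that fell and 6 replacement genes that fell. Over all genes, 3662 were then called higher and 3908 lower, beside 4007 and 3762 with every library. With any other library left out the count of members was 4 to 6. Calls over all genes were then fewer as well, at 2531 to 3789 higher and 1960 to 3614 lower. HTB9, AT4G40030, AT4G40040 and HTA9 were called with each library left out and under every other setting tried. HTB1 and AT2G28720 were not called without rh27-2 replicate 2 or without rh27-2 replicate 3 (highest adjusted p 0.0668 and 0.0572). HTA13, AT5G59970, AT5G10980 and HTA11 were not called without any single library other than wild-type replicate 3, with highest adjusted p-values of 0.0840, 0.107, 0.131 and 0.126. DESeq2 called 9 replicative genes lower, and a fit over all 12 libraries called 14, with 19 members in all. Over all genes DESeq2 called 4669 higher and 4168 lower, and the fit over 12 libraries 6192 and 4660.

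Tissue marker genes also differed between the genotypes in shoot apices. The 4 shoot apex genes summed to 134.9 to 172.9 CPM in wild type and 237.4 to 297.5 CPM in rh27-2, with STM, KNAT1 and KNAT6 called higher and AFO called lower. STM, a meristem identity gene, read 11.5, 9.68 and 17.4 CPM in wild type and 69.4, 60.8 and 63.7 CPM in rh27-2. The 4 green tissue genes summed to 20290 to 22670 CPM in wild type and 6121 to 13070 CPM in rh27-2, with CAB1 and LHCA1 of the 3 tested called lower. The part of these shifts in the histone values was not tested.

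**Figure D2:**
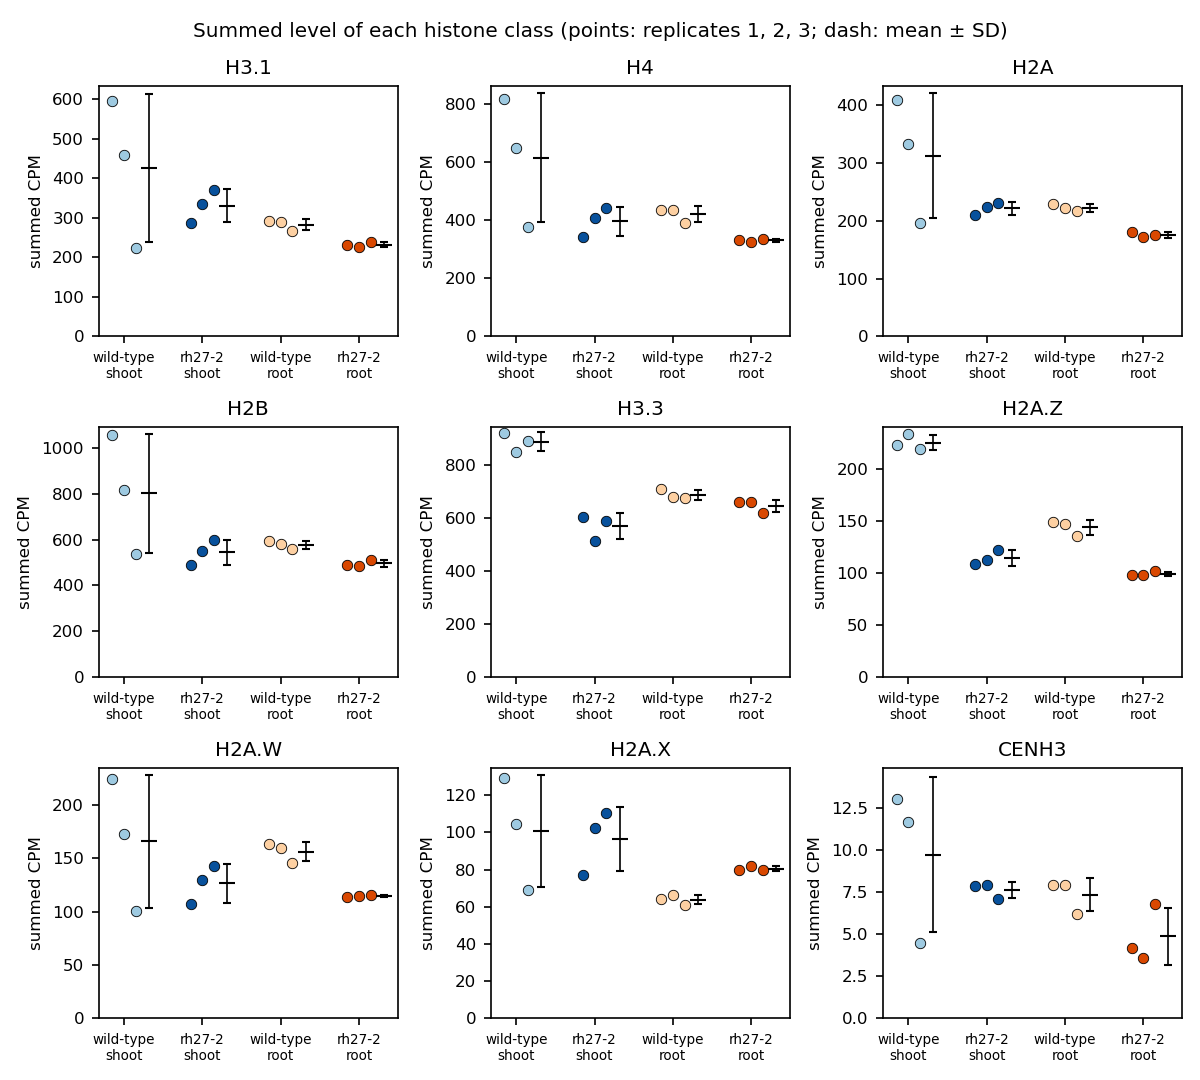
Summed CPM of each histone class in each library (points, replicates 1 to 3) with the mean ± SD of each group of 3. The sums of H3.3 and H2A.Z have tight wild-type shoot points above all rh27-2 shoot points, although HTA9 and HTA11 of H2A.Z ran in opposite orders there. The wild-type shoot points of H3.1, H4, H2A, H2B, H2A.W, H2A.X and CENH3 are spread widely and overlap the rh27-2 points.

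In rh27-2 root tips, the summed transcripts of every class but H2A.X were lower on average, by ratios of means from 0.662 for CENH3, whose groups overlapped, to 0.941 for H3.3, while both H2A.X genes rose. Of the 37 members 24 fell and 4 rose. The replicative genes fell in 16 cases and rose in 1, the replacement genes fell in 4 and rose in 1, and the other variants fell in 4 and rose in 2. Over all genes tested in root tips, 62.1% were called, 31.3% higher and 30.9% lower. The groups did not overlap for 24 members that were lower and 4 that were higher, against 33.5% and 34.6% of all genes. The median log2 fold change of the members was -0.32, beside 0.01 over all genes. Replicates were closer to each other than in shoot apices: the fit gave a common biological CV of 0.0735 for roots, against 0.202 for shoots.

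Of the 8 H4 genes, 6 fell in root tips, by log2 fold changes from -0.29 for AT1G07820 to -0.49 for AT5G59970. AT5G59970 measured 69.2, 74.4 and 64.9 CPM in wild type and 51.2, 47.7 and 50.1 CPM in rh27-2 (adjusted p = 2.13e-05). Every rh27-2 library was below every wild-type library for these 6 genes. AT1G07660 and HIS4 (AT2G28740) did not pass the test, at -0.03 ± 0.0824 and -0.08 ± 0.108 (adjusted p = 0.761 and 0.518), and their groups overlapped. The class summed to 436.4, 436.5 and 391.2 CPM in wild type and 330.3, 324.9 and 335.6 CPM in rh27-2, a ratio of means of 0.784.

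Of the 5 H3.1 genes, 4 fell in root tips. AT1G09200 measured 118, 120 and 112 CPM in wild type and 93.3, 92.2 and 95.2 CPM in rh27-2 (log2 fold change -0.32 ± 0.0489, adjusted p = 8.42e-05). AT5G10390, AT5G10400 and AT5G65360 fell by 0.43, 0.24 and 0.25 on the log2 scale. AT5G10390 and AT5G10400 are neighbours with 0 protein-coding genes between them. AT3G27360, with 1.21 to 2.19 CPM in root tips, did not pass the test (-0.40 ± 0.240, adjusted p = 0.160). AT5G10400 was not called without wild-type root replicate 1 (adjusted p = 0.0564) and with counts scaled to library totals.

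The canonical H2A genes split in root tips. HTA13 measured 53.1, 45.7 and 46.6 CPM in wild type and 28.4, 29.9 and 31.2 CPM in rh27-2, the largest fall among the replicative genes (log2 fold change -0.71 ± 0.0737, adjusted p = 3.13e-06). HTA2 (AT4G27230) and HTA10 (AT1G51060) both fell by 0.33 on the log2 scale. RAT5 (AT5G54640), an H2A gene known from Agrobacterium transformation of roots, went the other way, at 17.6, 19.3 and 17.8 CPM in wild type and 22.2, 22.2 and 20.8 CPM in rh27-2. It was the only replicative gene that rose (log2 fold change 0.25 ± 0.0806, adjusted p = 0.0161). RAT5 was not called by DESeq2, nor without wild-type root replicate 1 or rh27-2 root replicate 2 (highest adjusted p 0.0587). The share of RAT5 among counts of the 4 canonical H2A genes was 8.21% ± 0.507 (SD, n = 3) in wild type and 12.4% ± 0.536 in rh27-2 root tips.

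Of the 8 H2B genes, 3 fell in root tips, where 30.9% of all genes were called lower. HTB11 (AT3G46030) measured 172, 169 and 166 CPM in wild type and 120, 117 and 122 CPM in rh27-2 (log2 fold change -0.50 ± 0.0458, adjusted p = 9.68e-07). HTB9 read 24.3, 23.0 and 24.3 CPM against 14.0, 16.3 and 17.6 CPM (log2 fold change -0.59 ± 0.0928, adjusted p = 0.000119). These and AT2G37470, which fell by 0.48 on the log2 scale, had groups that did not overlap. HTB1, HTB2 (AT5G22880), HTB4 (AT5G59910), AT2G28720 and AT3G53650 did not pass the test, with log2 fold changes from -0.11 to 0.14. HTB4 read 202, 197 and 195 CPM in wild type and 190, 185 and 195 CPM in rh27-2, which overlap (-0.06 ± 0.0459, adjusted p = 0.244).

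The 3 H3.3 genes moved in both directions in root tips. AT4G40030 measured 187, 178 and 180 CPM in wild type and 153, 156 and 146 CPM in rh27-2 (log2 fold change -0.27 ± 0.0480, adjusted p = 0.000323). Its neighbour AT4G40040 read 327, 319 and 316 CPM against 285, 265 and 253 CPM (-0.26 ± 0.0530, adjusted p = 0.000818). AT5G10980 rose, from 193, 180 and 177 CPM in wild type to 220, 237 and 220 CPM in rh27-2 (log2 fold change 0.30 ± 0.0519, adjusted p = 0.000273). Its share of H3.3 counts was 27.3%, 26.6% and 26.3% in wild type and 33.5%, 36.0% and 35.6% in rh27-2, so every mutant library was above every wild-type one. The H3.3 sum stayed close, at 706.8, 677.2 and 672.7 CPM against 658.6, 658.0 and 619.0 CPM, a ratio of means of 0.941. With counts scaled to library totals the H3.3 sums overlapped, at 723.1, 695.1 and 684.4 CPM in wild type and 711.3, 716.5 and 674.4 CPM in rh27-2.

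The H2A.Z genes HTA9 and HTA11 fell in root tips and HTA8 did not pass the test. HTA11 measured 36.3, 36.0 and 32.4 CPM in wild type and 20.1, 18.1 and 19.7 CPM in rh27-2 (log2 fold change -0.86 ± 0.0779, adjusted p = 8.81e-07). HTA9 read 96.8, 96.2 and 90.3 CPM against 64.2, 63.7 and 66.3 CPM (-0.55 ± 0.0521, adjusted p = 1.28e-06). HTA8 overlapped between the genotypes, at 15.6, 15 and 13.1 CPM against 13.9, 16.3 and 15.7 CPM (0.06 ± 0.102, adjusted p = 0.614).

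All 3 H2A.W genes fell in root tips. HTA12 (AT5G02560) measured 19.2, 17.5 and 15.9 CPM in wild type and 9.50, 10.6 and 10.1 CPM in rh27-2 (log2 fold change -0.81 ± 0.102, adjusted p = 1.78e-05). HTA7 (AT5G27670) read 63.1, 63.7 and 60.2 CPM against 42.5, 42.3 and 45.2 CPM (-0.53 ± 0.0580, adjusted p = 4.87e-06), and HTA6 (AT5G59870) fell by 0.32. None of these groups overlapped. HTR12 (AT1G01370), the CENH3 gene, measured 7.95, 7.93 and 6.23 CPM in wild type and 4.20, 3.62 and 6.82 CPM in rh27-2, with rh27-2 replicate 3 above the lowest wild-type library (log2 fold change -0.60 ± 0.219, adjusted p = 0.0346). Its call was lost without wild-type root replicate 1 or 2 and without rh27-2 root replicate 1 or 2, with adjusted p up to 0.111, and with counts scaled to library totals.

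Both H2A.X genes rose in root tips. GAMMA-H2AX (AT1G54690) measured 1.51, 2.25 and 1.75 CPM in wild type and 4.62, 4.81 and 4.61 CPM in rh27-2, the largest change of any member in either organ (log2 fold change 1.35 ± 0.192, adjusted p = 4.71e-05). H2AXA (AT1G08880) read 62.7, 63.9 and 59.3 CPM against 75.2, 77.4 and 75.1 CPM (0.29 ± 0.0531, adjusted p = 0.000404). GAMMA-H2AX rested on few reads, with 29 counts in its lowest library and 94 in its highest, yet its call was kept under every setting tried. In shoot apices neither gene passed the test: GAMMA-H2AX had a log2 fold change of 0.02 ± 0.197 (adjusted p = 0.944) and H2AXA one of -0.12 ± 0.239 (adjusted p = 0.702).

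The root calls depended little on single libraries and more on how the spread was estimated. With a library left out in turn, 25 to 30 members were called. In a fit over all 12 libraries, the wide spread of the shoot libraries enters the estimate (common biological CV 0.153). There 10 members were called: 9 lower, of which 3 were replicative, and GAMMA-H2AX higher. Calls over all genes dropped too, to 4889 higher and 4209 lower of 20798 tested. The main fit had 6076 and 5999 of 19443. Among root markers, the root tip genes summed to 41.9 to 51.7 CPM in wild type and 49.5 to 62.1 CPM in rh27-2, and KNAT1, of the shoot list, rose from 2.59, 3.43 and 4.05 CPM to 15, 12.6 and 11.2 CPM. WOX5, which marks the root stem cell centre, read 1.12, 0.499 and 1.15 CPM in wild type and 7.19, 7.75 and 6.77 CPM in rh27-2. Of the root tip list, WOX5 and PLT2 were called higher. PLT1 (log2 fold change 0.30, adjusted p = 0.117) and SMB (-0.32, adjusted p = 0.0669) did not pass the test. KNAT6, also of the shoot list, was called higher (0.54, adjusted p = 0.000711), while STM and AFO had too few counts to be tested. The part of these markers in the histone values was not tested.

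**Figure D3:**
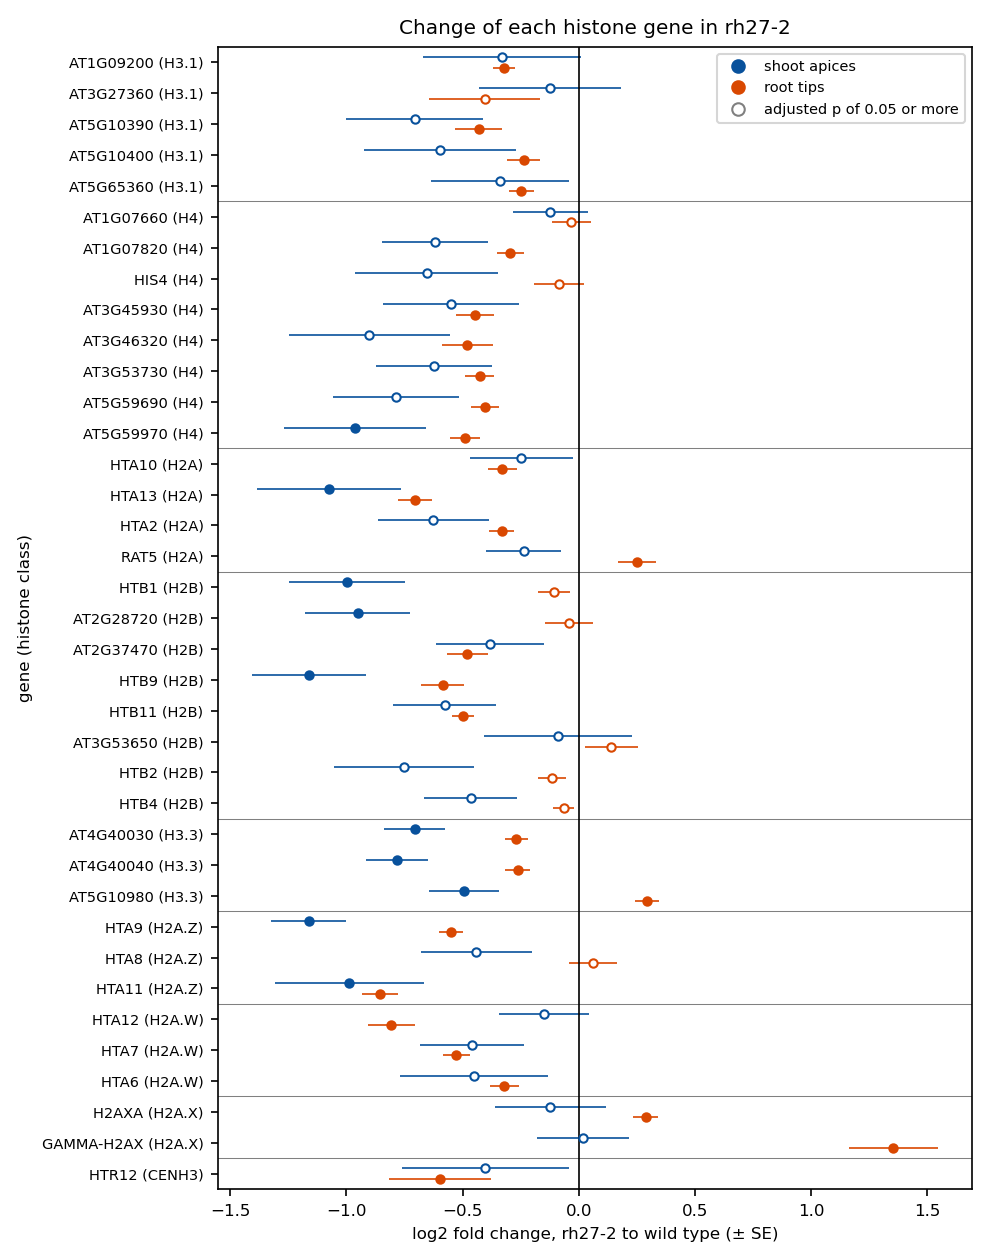
Log2 fold change of each core histone gene in rh27-2 against wild type (x axis, ± SE) in shoot apices (blue) and root tips (orange), with filled points where the adjusted p was below 0.05. Shoot estimates lie almost all below 0, mostly with wider errors than the root estimates, and the root estimate of GAMMA-H2AX lies far to the right at 1.35.

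Across both organs, which share no library, 7 members fell in each, beside 6.46% of all genes tested in both: HTA13, AT5G59970, HTB9, AT4G40030, AT4G40040, HTA9 and HTA11. AT5G10980 fell in shoot apices and rose in root tips, as did 3.54% of all genes. HTB1 and AT2G28720 fell in shoot apices and were not called in root tips (9.20% of all genes). A further 17 members fell in root tips and were not called in shoot apices (17.1% of all genes), and RAT5, GAMMA-H2AX and H2AXA rose there without a call in shoot apices (19.0% of all genes). The 7 that passed the test in neither organ, beside 23.7% of all genes, were AT3G27360, AT1G07660, HIS4, HTB2, HTB4, AT3G53650 and HTA8.

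Whether the genotype effect differed between the organs was tested as an interaction over the 12 libraries, which passed for 8 members. Of these, 7 were higher in root tips relative to shoot apices and 1 was lower, beside 44.0% of all genes called, 21.4% higher and 22.6% lower. All 3 H3.3 genes were among them. AT5G10980 differed by 0.74 ± 0.172 on the log2 scale (adjusted p = 0.00516), AT4G40040 by 0.46 ± 0.126 (adjusted p = 0.0119) and AT4G40030 by 0.38 ± 0.127 (adjusted p = 0.0293). HTA9 differed by 0.56 ± 0.157 (adjusted p = 0.0142), with a smaller fall in root tips. The H2B genes AT2G28720 and HTB1 differed by 0.86 ± 0.243 and 0.84 ± 0.293 (adjusted p = 0.0142 and 0.0363). GAMMA-H2AX differed by 1.27 ± 0.257 (adjusted p = 0.00227). HTA12 alone was lower in root tips relative to shoot apices, by a difference of -0.71 ± 0.190 (adjusted p = 0.0104), since it fell in root tips and had -0.15 ± 0.193 in shoot apices. No H3.1, H4 or canonical H2A gene passed this test. Its spread was estimated over both organs together, at a common biological CV of 0.153. Fitted alone, shoots had 0.202 and roots 0.0735, so these p-values depend on that pooling.

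These interaction calls moved with scaling and with the same library as before. With counts scaled to library totals the median over all genes shifted by 0.232, the split of all calls went from 4460 higher and 4699 lower to 6883 and 3321, and 10 members were called higher and 0 lower, so HTA12 lost its call. Without wild-type shoot replicate 3, 20 members were called, 19 of them higher, beside 4804 higher and 4943 lower over all genes. AT4G40030 was not called with size factors of DESeq2, with DESeq2 itself or without most single libraries (adjusted p up to 0.0812), and HTB1 was not called without 8 of the 12 libraries (adjusted p up to 0.0833).

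Within a library, the mix of histone classes is independent of scaling. H2A.Z made up 22.6%, 27.7% and 37.6% of all H2A counts in wild-type shoot apices and 21.6%, 19.8% and 20.2% in rh27-2 shoot apices. In root tips it made up 24.6%, 24.8% and 24.3% in wild type and 20.8%, 21.0% and 21.6% in rh27-2. The share was thus lower in all rh27-2 libraries of both organs, with differences of -8.73 and -3.42 percentage points. The shoot difference was -4.58 points without wild-type replicate 3 and -12.1 points without replicate 1, an alternative chosen after seeing the data. H2A.X went the other way in both organs, from 13.1%, 12.4% and 11.8% to 15.4%, 18% and 18.2% in shoot apices and from 10.6%, 11.1% and 10.9% to 16.9%, 17.6% and 16.9% in root tips. Every rh27-2 library was above every wild-type library, although the H2A.X sum itself overlapped between the genotypes in shoot apices, at 129.3, 104.5 and 69.0 CPM against 77.2, 102.3 and 110.4 CPM. H2A.W made up 26.6% ± 0.478 (SD, n = 3) of H2A counts in wild-type and 24.4% ± 0.349 in rh27-2 root tips, and its shares overlapped in shoot apices.

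The balance of replicative and replacement H3 differed between the genotypes in root tips, while the shoot groups overlapped. H3.1 made up 29.2%, 30.0% and 28.4% of H3.1 and H3.3 counts in wild-type root tips and 26.0%, 25.6% and 27.7% in rh27-2 root tips, a difference of -2.72 percentage points with groups that did not overlap. In shoot apices it made up 39.4%, 35.1% and 20.1% in wild type and 32.1%, 39.6% and 38.5% in rh27-2. The shoot difference of 5.23 points rested on wild-type replicate 3, and was -0.49 points without it. The ratio of all replicative to all replacement counts was 1.81 ± 0.0422 in wild-type and 1.66 ± 0.0789 in rh27-2 root tips, and in shoot apices it spread from 1.20 to 2.52 in wild type and from 1.86 to 2.42 in rh27-2.

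In root tips, summed replicative histones were lower and summed MCM genes higher in rh27-2. MCM2 to MCM7, the subunits of the replicative helicase, summed to 228.1, 217.7 and 213.2 CPM in wild type and 256.1, 278.0 and 286.5 CPM in rh27-2. The ratio of replicative histone to MCM2 to MCM7 counts was 6.79, 7.03 and 6.72 in wild type and 4.82, 4.35 and 4.40 in rh27-2, with no overlap. Against the G2 and mitosis list the ratio was 5.15, 5.39 and 5.39 in wild type and 4.28, 4.11 and 3.82 in rh27-2, again with no overlap. In shoot apices both ratios overlapped between the genotypes. The MCM2 to MCM7 sum there was 361.8, 318.0 and 241.6 CPM in wild type and 246.7, 264.9 and 248.5 CPM in rh27-2.

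**Figure D4:**
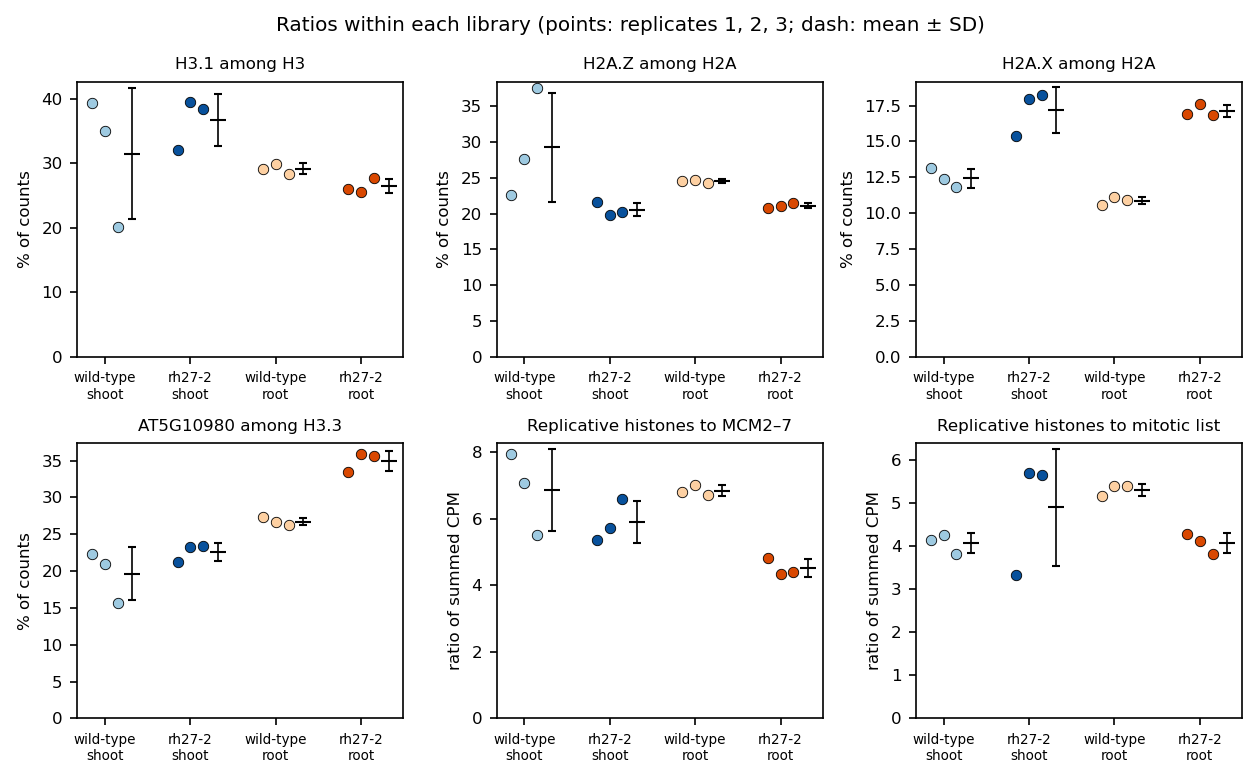
Shares and ratios computed within each library (points, replicates 1 to 3, with mean ± SD of each group of 3), as percent of counts in 4 panels and as ratios of summed CPM in 2 panels. H2A.X among H2A is higher in rh27-2 in both organs, H2A.Z among H2A is lower in both, and the ratios to MCM2 to MCM7 and to the mitotic list are lower in rh27-2 root tips and overlap in shoot apices.

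Genes that work with the core histones were taken from fixed lists, whose counts are to be read beside the 62.1% of all genes called in root tips and the 40.9% called in shoot apices. Linker histones H1 bind the DNA between nucleosomes. All 3 fell in shoot apices: AT2G30620 read 285, 242 and 210 CPM in wild type and 143, 130 and 147 CPM in rh27-2 (log2 fold change -0.87 ± 0.134, adjusted p = 0.00336), AT1G06760 fell by 0.79, and HIS1-3, a drought-induced H1 at 0.271 to 9.28 CPM in these libraries, fell by 3.19. In root tips AT2G30620 and AT1G06760 fell by 0.30 and 0.23 while HIS1-3 rose by 0.62 on the log2 scale (adjusted p = 0.0035). HIS1-3 was not called in shoot apices without wild-type replicate 3 (-1.76, adjusted p = 0.0603) or without any one of the rh27-2 libraries (adjusted p up to 0.117).

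Histone chaperones carry newly made or evicted histones. Of 7 H2A-H2B chaperones, 5 rose and 1 fell in root tips, where both H2A and H2B sums were lower in rh27-2. NRP2, a NAP1-related protein, read 54.4, 54.1 and 47.1 CPM in wild type and 85.4, 87.8 and 98.3 CPM in rh27-2 (log2 fold change 0.80 ± 0.0709, adjusted p = 7.13e-07), and NRP1 rose by 0.69. NAP1;3 fell by 0.24 in root tips and rose by 0.49 in shoot apices. In shoot apices 1 of the 7 rose and 1 fell, the latter being HMG (AT3G28730), a subunit of the FACT complex, which fell by 0.49. NAP1;3 was not called in shoot apices without rh27-2 replicate 2 (0.46, adjusted p = 0.0688).

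Other chaperones handle H3 and H4. In root tips, 1 of the 3 CAF-1 subunits rose, MSI1 (0.30 ± 0.0588, adjusted p = 0.000591), and none was called in shoot apices. Of 7 genes for ASF1 and H3.3 deposition, 2 rose and 1 fell in root tips and none was called in shoot apices. There 3 of the 7 had an unadjusted p below 0.05, as did at least 40.9% of all genes. None of the 3 CAF-1 subunits did. ASF1B, a chaperone that hands H3 and H4 on to CAF-1, read 17.3, 18.7 and 15.5 CPM in wild-type and 10.5, 10.9 and 11.8 CPM in rh27-2 root tips (log2 fold change -0.64 ± 0.101, adjusted p = 0.000122). HIRA, which deposits H3.3, rose by 0.36 there. Of 2 CENH3 loading genes, 1 rose in root tips and none was called in shoot apices, where 1 had an unadjusted p below 0.05.

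Of 7 genes for H2A.Z and H2A.W remodelling, 3 rose and 1 fell in root tips, and 2 fell in shoot apices. PIE1, the catalytic subunit of the complex that places H2A.Z, rose by 0.33 in root tips (adjusted p = 0.000312). INO80, another remodeller, fell by 0.29 in root tips and by 0.99 in shoot apices, where its call was lost without any one of the rh27-2 libraries (adjusted p up to 0.0876). Of 6 genes for E2F, DP and RBR1, regulators of S-phase genes, 3 rose and 1 fell in root tips, and 1 rose and 1 fell in shoot apices. DPA rose by 0.44 in root tips and 0.51 in shoot apices, E2F3 fell by 0.37 in root tips, and DPB fell by 0.53 in shoot apices. The shoot call of DPA was lost without wild-type replicate 1 or 2 or rh27-2 replicate 2 (adjusted p up to 0.107).

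Of 15 DNA replication genes, 9 rose and 3 fell in root tips, and 3 fell in shoot apices. RNR2A, a subunit of ribonucleotide reductase, read 11.3, 9.12 and 10.6 CPM in wild-type and 25.5, 29.5 and 24.8 CPM in rh27-2 root tips (log2 fold change 1.35 ± 0.104, adjusted p = 2.09e-07). RNR2A fell in shoot apices, from 46.5, 46.5 and 28.6 CPM to 20.4, 22.4 and 16.8 CPM (-1.08 ± 0.209, adjusted p = 0.00762). RNR1 and MCM2 rose by 0.97 and 0.45 in root tips, while CDC45 and CDT1A, which help to start replication, fell by 0.71 and 0.46. Of 12 G2 and mitosis genes, 2 rose in root tips, among them CYCB1;1 (0.69 ± 0.0869, adjusted p = 1.64e-05), and 4 fell in shoot apices, among them SYP111, CDKB2;2 and CDC20.1 (-1.21, -1.06 and -0.90). SYP111 and CDC20.1 were not called without rh27-2 shoot replicate 2 or 3 (adjusted p up to 0.0691).

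Between the organs of wild type, 11 members were lower in root tips than in shoot apices and 1 was higher, beside 74.2% of all genes called, 36.3% higher and 37.9% lower. This comparison shares its libraries with the ones above, so its results are not independent of theirs. The groups did not overlap for 10 members that were lower and 1 that was higher in root tips, against 40.1% and 38.9% of all genes. HTA12, the H2A.W gene, was the one that was higher: it read 4.25, 3.46 and 4.70 CPM in shoot apices and 19.2, 17.5 and 15.9 CPM in root tips (log2 fold change 2.08 ± 0.159, adjusted p = 1.17e-05). The members lower in root tips were AT5G10400, AT1G07660, AT5G59690, HTA13, HTB2 and HTB4 of the replicative genes, AT4G40030, AT4G40040 and HTA9 of the replacement genes, and both H2A.X genes. Their log2 fold changes ran from -1.18 for AT1G07660 to -0.49 for AT4G40040. Without wild-type shoot replicate 3 there were 33 called members, 32 of them lower in root tips, and with any other library left out there were 9 to 11. Over all genes, 7846 were called lower without that replicate, 6891 to 7524 without any other library and 7564 with every library. HTA13, H2AXA and HTB4 lost their calls with some single libraries left out (adjusted p up to 0.0689, 0.0713 and 0.0505).

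The shares that single copies took of their class differed between organs for some genes. HTB11 took 17% ± 0.734 (SD, n = 3) of H2B counts in wild-type shoot apices and 29.2% ± 0.470 in wild-type root tips, where rh27-2 had 24.2% ± 0.346. The H3.1 genes AT1G09200 and AT5G65360 took 33.3% ± 1.30 and 33.8% ± 1.17 of H3.1 counts in wild-type shoot apices, and 35.7% ± 1.28 and 35.4% ± 0.456 in rh27-2 shoot apices. HTA13 took 29.8% ± 3.52 of canonical H2A counts in wild-type shoot apices and 21.2% ± 1.39 in rh27-2 shoot apices, and 21.8% ± 1.31 and 17% ± 1.16 in root tips. AT1G07660, an H4 gene, took 6.97% ± 1.62 of H4 counts in wild-type shoot apices and 4.26% ± 0.226 in wild-type root tips. Such shares depend on how reads matching several copies were assigned.

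**Figure D5:**
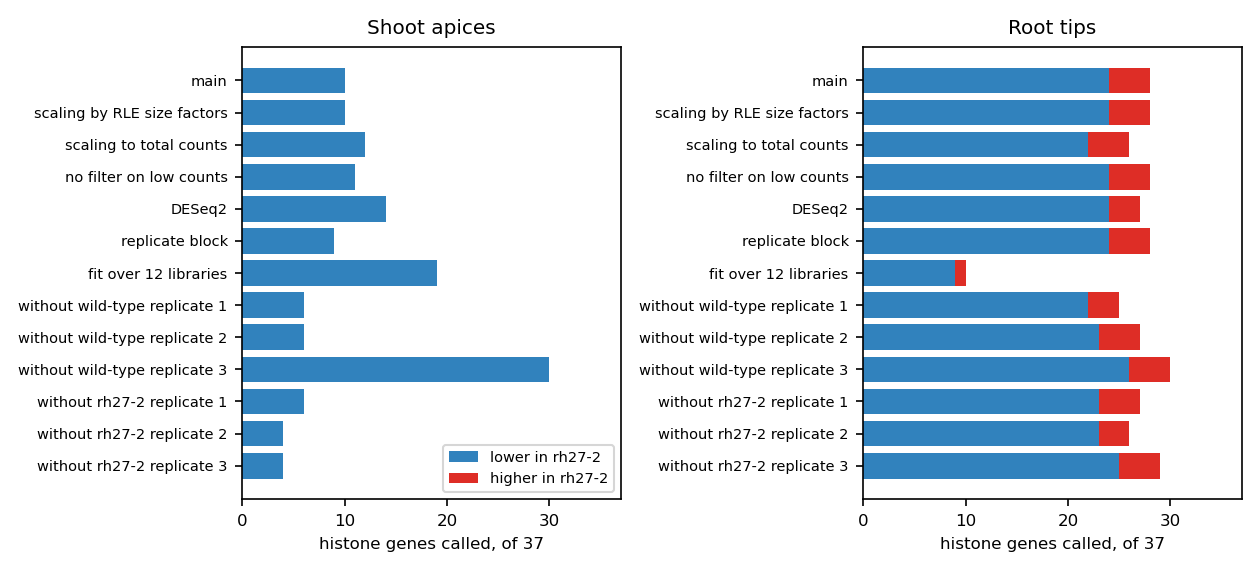
Number of the 37 core histone genes called lower (blue) or higher (red) in rh27-2 in shoot apices (left) and root tips (right) under each way of processing the counts, with main for the values given in the text. The shoot bars run from 4 to 30, the longest without wild-type replicate 3, and the root bars stay between 25 and 30 apart from the fit over 12 libraries with 10.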

How the data were processed

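Messenger RNA was measured in 12 libraries, 3 for each of 4 groups. The authors deposited raw counts per locus, with no header, over 33341 loci of the TAIR10 build; TopHat2, HTSeq, edgeR and Bowtie2 are named in the submitters' processing notes, with no roles or versions. Strand and the treatment of reads matching several loci are not given in the sources used here. No column lacked a sample.

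From the counts, genes were tested per organ with edgeR 4.0.16 (limma 3.58.1, R 4.3.3): loci kept by filterByExpr (min.count 10), TMM factors, robust glmQLFit and glmQLFTest, Benjamini-Hochberg adjustment at 0.05 over all genes. The interaction used all 12 libraries. DESeq2 1.42.0, other scalings, no filter, the replicate block, a fit over all 12 libraries and leaving out each library were alternatives. The script was tested on simulated data. Figures were drawn with matplotlib 3.10.9. Sums and ratios have no test. Depth was 15603992 to 20380109 counts, and no replicate was a copy of another.

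Names came from RefSeq (TAIR10.1), where 33056 loci matched and 19 of the 37 members had a symbol; class membership came from the list. Members, and the gene lists for linker histones, chaperones, remodelling, CENH3 loading, cell cycle and markers, were chosen with earlier results of these data known. Every member could be named, with RH27 and up to 4 genes of a list per organ by adjusted p. KNAT1, STM, CAB1 and other markers were named to describe the tissue.

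Replicate numbers were checked for pairing before fits were compared. Deviations from group means of wild-type and rh27-2 shoot libraries of the same number correlated at 0.448, 0.426 and 0.160. Each wild-type shoot library matched its own number best. With the number as a block, the common biological CV in shoot apices was 0.152, beside 0.202 without the block. The block gave 4630 genes higher and 4556 lower of 19361, in place of 4007 and 3762 of 18972. With 3 libraries per group these checks cannot settle whether the numbers pair the libraries, and the labels do not say. Summed replicative genes ran in opposite orders, at 2878, 2253 and 1334 CPM in wild type and 1325, 1515 and 1638 CPM in rh27-2. The main tests used no block.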

Additional observations from a re-analysis of the deposited data

Results flagged for a closer look

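The interaction term of edgeR's quasi-likelihood fit over 12 libraries passed for 8 of the 37 core histone genes. For these the genotype effect differed between root tips and shoot apices. Over all genes tested 44.0% passed, 21.4% higher and 22.6% lower. The difference of log2 fold changes (root tips minus shoot apices, n = 3 libraries per group) was 0.74 for AT5G10980, 0.46 for AT4G40040 and 0.38 for AT4G40030, the 3 H3.3 genes. It was 0.56 for HTA9, 0.86 for AT2G28720, 0.84 for HTB1, 1.27 for GAMMA-H2AX and -0.71 for HTA12. AT5G10980 is the member that fell in shoot apices and rose in root tips by separate tests.

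The same test passed for 29 of the 62 genes tested in the accompanying lists without markers, 28 with a positive and 1 with a negative difference. Beside these, 44.0% of all genes passed, 21.4% with a positive and 22.6% with a negative difference. Values follow for 18 of these that meet the rule for named genes. Others that passed also meet it, among them NAP1;1 (0.52), SWC2 (0.60), AT4G37210 (0.63), HIK (1.12) and CYC1BAT (0.91). Among linker histones the difference was 0.50 for AT1G06760, 0.52 for AT2G30620 and 3.75 for HIS1-3, which has few counts in shoot apices. Among chaperones and remodellers it was 0.49 for MSI1, 0.62 for HIRA, 0.47 for NRP1, 0.43 for NRP2, 0.38 for HMG, 0.48 for PIE1 and -0.79 for NAP1;3, which rose in shoot apices and fell in root tips. Among S-phase genes it was 0.42 for DPB, 0.66 for MCM2, 0.57 for PRL, 1.14 for RNR1 and 2.38 for RNR2A, which fell in shoot apices and rose in root tips. Among mitotic genes it was 0.91 for CDKB2;2, 1.28 for SYP111 and 1.09 for CDC20.1. The calls of NRP1, NRP2, DPB and PRL were lost with size factors of DESeq2 (adjusted p = 0.0651, 0.0636, 0.0598 and 0.0692), and that of NRP2 also with the replicate block (0.43, adjusted p = 0.0561).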

How the results depend on the processing

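In shoot apices the count of called members was 10 and became 19 in a fit over 12 libraries; replicative genes called lower went from 5 to 9 with DESeq2 and 14 in that fit. In root tips that fit gave 10 members, 3 replicative genes lower and 1 member higher, in place of 28, 16 and 4. Over all genes that fit called 4889 higher and 4209 lower there, in place of 6076 and 5999. Between wild-type organs it gave 20 members, 19 lower, in place of 12 and 11. Scaling to total counts left 0 members with a lower interaction. Leaving out a library gave 4 to 30 members in shoot apices (1 to 21 replicative lower, 3 to 6 replacement lower), 25 to 30 in root tips (15 to 18 replicative lower, 3 to 4 higher), 6 to 20 for the interaction (5 to 19 higher) and 9 to 33 between organs (1 to 2 higher, 8 to 32 lower); wild-type shoot replicate 3 gave every highest count involving shoot libraries except the 2 members higher between organs, which came without wild-type shoot replicate 1.

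The log2 ratio of summed replacement CPM in shoot apices was -0.70, -0.85 with total counts and -0.60 with H2A.W, H2A.X and CENH3 included. In root tips total counts moved it from -0.16 to -0.0685, and the replicative one from -0.29 to -0.20. With a library left out, the replicative ratio ran from -0.78 to -0.27 in shoot apices and from -0.32 to -0.26 in root tips, the replacement ratio from -0.73 to -0.64 and from -0.17 to -0.13, and the difference in H3.1 share from -0.49 to 9.15 and from -3.36 to -2.28 percentage points. The cause of these moves was not tested.

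Among members that were not called, scaling to total counts turned the sign of GAMMA-H2AX in shoot apices (-0.0648) and of AT1G07660 (0.0611), HIS4 (0.00715), AT2G28720 (0.05) and HTB4 (0.0284) in root tips. Leaving out a library gave -0.408 to 0.0491 for AT3G27360, -0.399 to 0.089 for AT3G53650, -0.103 to 0.125 for GAMMA-H2AX and -0.349 to 0.073 for H2AXA in shoot apices, and -0.0519 to 0.00322 for AT1G07660, -0.173 to 0.061 for HIS4, -0.0943 to 0.0115 for AT2G28720 and -0.00593 to 0.123 for HTA8 in root tips.

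The replicate block changed the call of HTA11 in shoot apices (adjusted p = 0.0570) and of 0 of the 37 members in root tips, 0 of the 8 with a called interaction and 0 of the 12 called between wild-type organs. In root tips same-numbered libraries correlated at 0.0668, 0.010 and -0.0345 and did not all match their own number best. The same held for the wild-type organs, at 0.00905, -0.0392 and 0.0257. No pairing by number was thus seen in these. In root tips the block left 28 members called.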
